A study of Rattus norvegicus with 18 samples.

Results

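The glucocorticoid receptor Nr3c1, its listed target genes Fkbp5, Tsc22d3, Klf9, Sgk1, Zbtb16, Errfi1l and Cdkn1c, and the corticosteroid enzymes Hsd11b1 and Hsd11b2 were followed through ovulation in rat follicles. Members were the probe sets annotated with a listed symbol and no other symbol. Of 10 listed genes 8 had such a probe set, with 12 of the 31099 probe sets on the array between them. No probe set carried Zbtb16 or Errfi1l alone, so both are without a value here, and Errfi1, a different symbol, was counted among the wider targets described further on. Both Nr3c1 and Fkbp5 had 2 probe sets, Klf9 had 3 and the other genes 1 each. A filter that kept probe sets above the median of their own array on at least 3 of 18 arrays passed 10 of the 12, which covered all 8 genes. The 2 that did not pass were Klf9 probe sets, with a highest normalized signal of 12.2 (1390076_at) and 3.36 (1387882_at).

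Follicles of Crl:CD(SD) rats were cut by laser from frozen ovary sections 8 µm thick, with 15 follicles stated for each phase, and hybridized to 18 arrays in 6 groups of 3. RU486 (RU), which blocks both the progesterone and the glucocorticoid receptor, was given by mouth at 100 mg/kg at 10:00 of proestrus. Indomethacin (IM), which blocks the cyclooxygenases, was given by mouth at 4 mg/kg at 16:00 of proestrus. Follicles were collected at 22:00 of proestrus from RU rats (RU PeF), IM rats (IM PeF) and rats with no treatment (control PeF). They were collected again at 10:00 of estrus, when the RU follicles (RU UF) and IM follicles (IM UF) were unruptured and the control follicles (control PoF) had ovulated. Drug and lack of rupture therefore cannot be told apart at estrus, and the RU contrasts do not separate the glucocorticoid from the progesterone receptor. Between 22:00 and 10:00, stage, clock hour and, in treated rats, time since dosing change together and cannot be told apart. At either time RU and IM follicles also differ in time since dosing. The sources used here give no vehicle group. The labels state 3 animals for each treatment and time but tie no array to an animal, so p-values measure the spread between samples.

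Glucocorticoids enter the cell and bind the receptor encoded by Nr3c1, which waits in the cytoplasm with heat shock proteins and immunophilins and then moves to the nucleus to switch genes on or off. Fkbp5, Tsc22d3, Klf9 and Sgk1 are switched on by the receptor in many tissues. In the ovary the supply of active hormone is set locally as well: Hsd11b1 regenerates corticosterone from its inactive keto form and Hsd11b2 inactivates it. Around ovulation granulosa cells of several mammals are known to move towards Hsd11b1.

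The arrays differed in brightness, with median deposited signals between 4.4 (control PeF 3) and 27.4 (control PoF 3), and were quantile normalized before any comparison. Control PeF 3 also had 25.1% of its probe sets at the lowest deposited signal, the largest share of the 18 arrays, and values without it are given where that made or ended a call or turned the sign of a printed difference, and for the calls against control PeF at 22:00. Of 9 measured granulosa markers, 8 or 9 stood above the background level on every array. Of 5 measured oocyte markers, between 0 and 4 did. The scaling bears on direction: on the signals as deposited the median log2 difference of all tested probe sets was 0.77 in RU PeF over control PeF, -0.67 in RU UF over control PoF and 1.28 in control PoF over control PeF. Of the calls in RU PeF over control PeF 46.1% were in the higher direction after quantile normalization, 63.6% on the signals as deposited and 75.6% after median scaling. The same shares were 48.4%, 6.62% and 36.2% in RU UF over control PoF, and 53.3%, 97.5% and 74.5% in control PoF over control PeF. In bulk samples such as these, fewer cells of a type and less RNA per cell cannot be told apart.

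At 22:00 of proestrus 4 of the 10 tested member probe sets were lower in RU PeF than in control PeF, and none was higher (limma adjusted p under 0.05). Across the array 7.41% of the 18155 tested probe sets were called in this comparison, 3.99% of them in the lower and 3.42% in the higher direction. The 4 probe sets belonged to Fkbp5, Tsc22d3, Klf9 and Sgk1, which fell by 0.68 to 1.80 on the log2 scale. All 4 had no overlap between the groups, as had 11.5% of all tested probe sets in that direction. The count was 2 after median scaling, with Klf9 lower and Hsd11b1 higher, and 0 on the signals as deposited or with the 2 groups fitted alone. Without control PeF 3 it was 5, with -1.36 ± 0.19 for Fkbp5 (1388901_at), -0.92 ± 0.16 for Klf9 and -0.81 ± 0.16 for Sgk1 (adjusted p = 0.000248, 0.00157 and 0.00395). The differences are on the scale of log2(normalized signal + 3.08), which understates the change of dim probe sets. In IM PeF against control PeF no member was called, where 0 of the 18155 probe sets were called (0%), and 1 member, Fkbp5 (1380611_at, 0.36 ± 0.16), and 2066 probe sets had an unadjusted limma p under 0.05.

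Fkbp5 encodes an immunophilin that binds the receptor complex and lowers its affinity for hormone, and its induction closes a feedback loop. Its probe set 1388901_at read 725, 638 and 637 in RU PeF, against 2030.4, 1441 and 1018 in control PeF. All 3 RU PeF values lay below all control PeF values, and the difference was -1.11 ± 0.21 (log2, SE, limma adjusted p = 0.00308). After median scaling it was -0.77 (adjusted p = 0.116). IM PeF, at 1243, 2121 and 1862, overlapped control PeF (0.24 ± 0.21, adjusted p = 0.644; -0.0093 without control PeF 3). Against IM PeF the RU PeF difference was -1.35 ± 0.21 (adjusted p = 0.000528).

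The other Fkbp5 probe set, 1380611_at, read 1574, 1441 and 1828 in RU PeF, 3026, 2319 and 3026 in IM PeF, and 2240.3, 2538 and 1765 in control PeF. RU PeF overlapped control PeF and was not called against it (-0.42 ± 0.16, adjusted p = 0.123). It lay below IM PeF in all 3 samples (-0.78 ± 0.16, adjusted p = 0.00755; without RU PeF 2 adjusted p = 0.052). Without control PeF 3 the difference from control PeF was -0.57 ± 0.17 (adjusted p = 0.0462).

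Tsc22d3 encodes the leucine zipper protein GILZ, an early induced mediator of the anti-inflammatory action of glucocorticoids. It read 171, 108 and 184 in RU PeF, against 1276, 582 and 199.6 in control PeF. The groups did not overlap, but control PeF itself spread widely, and its lowest value, that of control PeF 3, lay close to the RU PeF values. The difference was -1.80 ± 0.50 (adjusted p = 0.0372), and -2.49 ± 0.43 without control PeF 3 (adjusted p = 0.00143). Leaving out control PeF 1 gave -1.17 ± 0.46 and ended the call (adjusted p = 0.119), and leaving out control PeF 2 or any 1 of the RU PeF samples also ended it, as did median scaling (-1.43, adjusted p = 0.121). IM PeF read 381, 1791 and 779, all above RU PeF (-2.41 ± 0.50 for RU PeF over IM PeF, adjusted p = 0.00746; without IM PeF 2 or RU PeF 2, adjusted p = 0.0566 and 0.0507).

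Klf9 encodes a zinc finger transcription factor that the receptor induces directly. Its measurable probe set, 1370209_at, read 1184, 866 and 833 in RU PeF, against 2059.7, 1567 and 2837 in control PeF. No RU PeF value reached the lowest control value, and the difference was -1.14 ± 0.18 (adjusted p = 0.000731). In IM PeF the 3 values of 2055, 2087 and 1929.8 lay inside the control range, and RU PeF over IM PeF was -1.09 ± 0.18 (adjusted p = 0.000894).

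Sgk1 encodes a serine kinase that regulates ion channels and cell survival and is induced by glucocorticoids and by gonadotropins. It read 690.2, 602 and 569 in RU PeF, against 1169.9, 1012 and 830.0 in control PeF. Every RU PeF sample lay below every control sample (-0.68 ± 0.16, adjusted p = 0.0121). Without RU PeF 3 the difference was -0.62 ± 0.18 (adjusted p = 0.0615), and after median scaling -0.34 (adjusted p = 0.399). With the signals as deposited it was 0.24, which is -0.53 relative to the median of all probe sets there. IM PeF, at 1082, 1279 and 1341, was above all RU PeF samples (-0.99 ± 0.16 for RU PeF over IM PeF, adjusted p = 0.00069). With both Fkbp5 probe sets, Tsc22d3 and Klf9, this made 5 of 10 member probe sets lower in RU PeF than in IM PeF and none higher, against 5.23% of all tested probe sets called (3.25% lower, 1.98% higher).

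**Figure D1:**
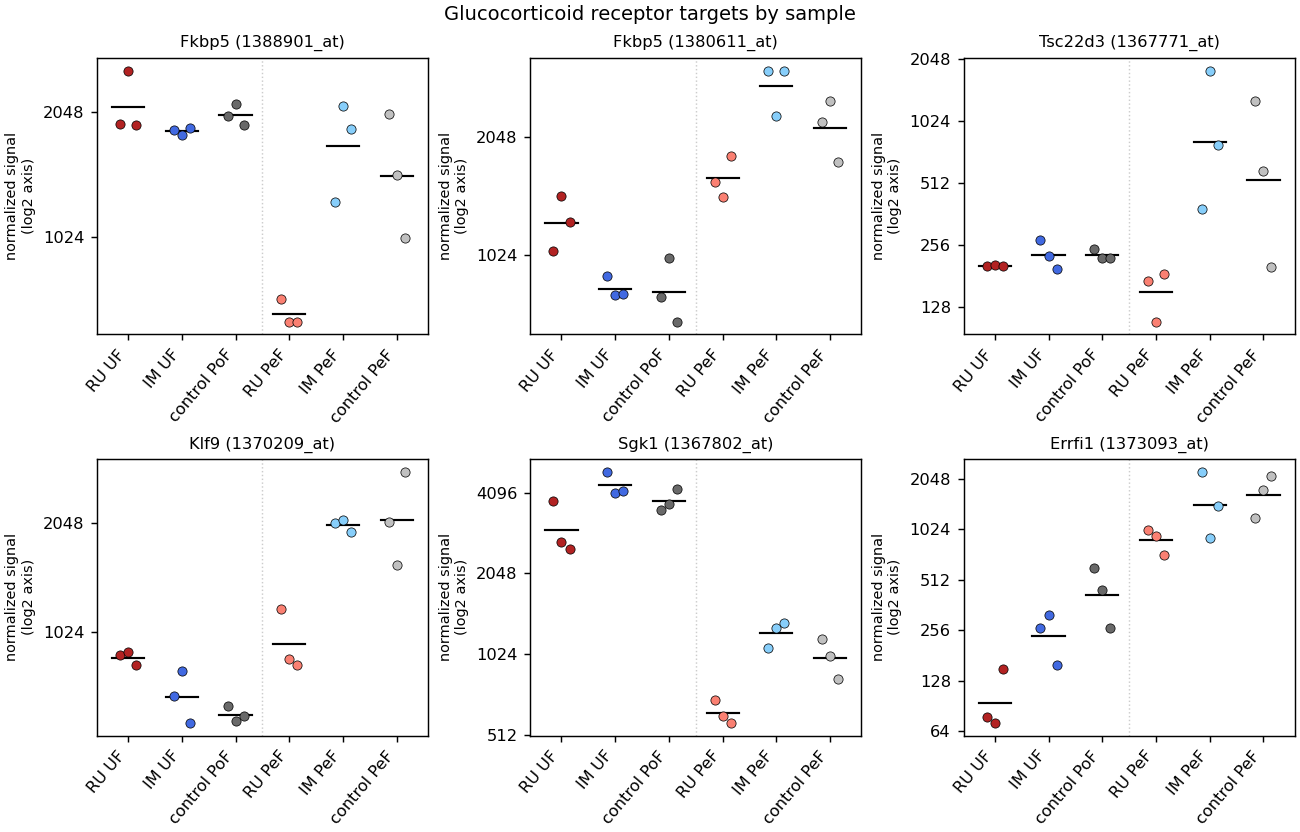
Normalized signal on a log2 axis of the 2 Fkbp5 probe sets, Tsc22d3, Klf9, Sgk1 and the wider target Errfi1 in the 6 groups. Dots are samples and lines are geometric means; the dotted line separates 10:00 of estrus (left) from 22:00 of proestrus (right). In RU PeF the values of Fkbp5 (1388901_at), Tsc22d3, Klf9 and Sgk1 lie below all values of IM PeF and of control PeF.

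Markers of other cells of the follicle wall differed between the same samples. The summed signal of 6 smooth muscle and pericyte markers was 173 to 179.7 in RU PeF, against 401 to 440.2 in control PeF, with 3 of 6 called lower, where 4.73% of all tested genes were called lower. The sum of 5 theca markers was 1181 to 1379.6 in RU PeF and 2166 to 2558 in control PeF, with 2 of 4 tested markers called lower. Most of that sum was Nr2f2, at 983 to 1094 in RU PeF and 1624 to 2121 in control PeF. Cyp17a1 and Insl3 overlapped between the groups. For 5 endothelial markers the sums were 604 to 761 in RU PeF and 887 to 1001 in control PeF, with 2 called lower. For 9 granulosa markers the sums were 15936 to 23968 and 12016 to 18332, with 0 called higher and 1 lower. Between 4 and 6 of the markers of each of these lists were above background on every RU PeF and control PeF array, and 8 or 9 of the granulosa list. Gapdh signal near the 3' end over that near the 5' end (log2), often read as a measure of RNA quality, was 2.65 to 2.94 in RU PeF and 2.95 to 4.09 in control PeF. The part of these in the target differences was not tested.

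The promoters of the 4 genes with a probe set called lower in RU PeF over control PeF are shown. These genes did not move together over time in controls, where Sgk1 rose and Klf9 fell. RefSeq promoters (build GRCr8) run from 250 bases before to 50 after a start, and 5 members matched with 10 promoters. For genes with several starts the most downstream is shown, all 5′ to 3′. Fkbp5 lies at chr20:6543506-6543805 on the minus strand, Tsc22d3 at chrX:109009985-109010284 on the minus strand, Klf9 at chr1:230126396-230126695 on the plus strand and Sgk1 at chr1:24804782-24805081 on the minus strand. Capitals mark TGACG, the shorter form of the cyclic AMP element that its binding factors also use, and the box TATAAA that places the start, which do not overlap here.
Fkbp5: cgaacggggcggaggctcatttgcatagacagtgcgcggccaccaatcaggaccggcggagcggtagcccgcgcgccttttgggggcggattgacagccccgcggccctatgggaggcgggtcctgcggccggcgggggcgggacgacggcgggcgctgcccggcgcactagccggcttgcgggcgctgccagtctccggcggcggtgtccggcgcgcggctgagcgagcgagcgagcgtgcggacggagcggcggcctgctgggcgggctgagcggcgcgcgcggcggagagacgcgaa
Tsc22d3: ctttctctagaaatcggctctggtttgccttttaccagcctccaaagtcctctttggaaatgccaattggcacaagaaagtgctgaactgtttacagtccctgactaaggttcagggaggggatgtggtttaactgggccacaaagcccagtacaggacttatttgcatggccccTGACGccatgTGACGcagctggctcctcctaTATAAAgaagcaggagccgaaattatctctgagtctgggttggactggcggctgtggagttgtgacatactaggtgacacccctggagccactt
Klf9: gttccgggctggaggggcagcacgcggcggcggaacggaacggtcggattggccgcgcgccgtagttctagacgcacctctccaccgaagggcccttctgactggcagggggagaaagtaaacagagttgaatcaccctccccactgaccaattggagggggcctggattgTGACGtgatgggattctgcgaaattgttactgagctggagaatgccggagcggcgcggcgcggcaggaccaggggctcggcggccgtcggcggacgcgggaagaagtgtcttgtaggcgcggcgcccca
Sgk1: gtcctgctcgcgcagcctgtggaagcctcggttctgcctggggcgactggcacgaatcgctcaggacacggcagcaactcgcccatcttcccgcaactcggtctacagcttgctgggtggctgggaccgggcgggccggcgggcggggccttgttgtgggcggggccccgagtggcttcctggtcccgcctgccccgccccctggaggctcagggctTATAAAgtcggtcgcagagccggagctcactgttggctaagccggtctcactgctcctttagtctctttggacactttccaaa
The full glucocorticoid response element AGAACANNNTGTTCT, its core GNACANNNTGTNC and the single hexamer AGAACA were searched on both strands. The cyclic AMP element TGACGTCA, its shorter form and the start-placing box were searched in the same way. The shorter form lies within the cyclic AMP element and the hexamer within the full glucocorticoid element. No member promoter held the cyclic AMP element in full (1.83% of all promoters). None of the 10 member promoters held the full element, the core or the hexamer, which 0.0149%, 0.439% and 20.7% of all 33469 promoters in the table hold. The shorter cyclic AMP form was found in 2 of the 10 (21.2% of all promoters), those of Tsc22d3 and Klf9 printed here, and the box in 3 (14.2%), among them the Tsc22d3 and Sgk1 promoters printed here. The window says nothing of elements farther from the start.

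At 10:00 of estrus 3 member probe sets stood apart. In RU UF against control PoF 3 of 10 member probe sets were higher and none lower, against 8.77% of all tested probe sets called, 4.24% higher and 4.53% lower. They belonged to Hsd11b1, Cdkn1c and the Fkbp5 probe set 1380611_at. The count was 0 on the signals as deposited and 5 with the 2 groups fitted alone. It was 6 with arrays weighted by quality, where Sgk1 was called lower. Against IM UF 3 were higher and 1, Sgk1, was lower in RU UF, beside 6.95% of all tested probe sets (3.48% in each direction). In IM UF against control PoF no member was called, beside 6 of 18155 probe sets (0.033%). No member and 1264 probe sets had an unadjusted limma p under 0.05 there.

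The Fkbp5 probe set 1380611_at read 1047, 1446 and 1244 in RU UF, 904, 808 and 813 in IM UF, and 801, 1004 and 692 in control PoF. RU UF lay above both other groups without overlap (0.58 ± 0.16 over control PoF, adjusted p = 0.0329; 0.55 ± 0.16 over IM UF, adjusted p = 0.0495). Leaving out control PoF 1 or 3, or RU UF 2 or 3, ended the call against control PoF, with adjusted p up to 0.161. Leaving out any array of RU UF or IM UF except RU UF 1 ended the call against IM UF. With the signals as deposited the difference from control PoF was -0.15, which is 0.53 relative to the median of all probe sets. After median scaling it was 0.45 and not called (adjusted p = 0.44). With no filter the call was lost as well (adjusted p = 0.0527). The probe set 1388901_at read 1914, 2579.9 and 1909 in RU UF, 1858, 1801 and 1877 in IM UF, and 2005, 2143 and 1907 in control PoF. These 3 groups lay close together, and RU UF overlapped control PoF (0.07 ± 0.21, adjusted p = 0.909).

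Klf9 read 884, 902 and 832 in RU UF, 682, 801 and 576 in IM UF, and 642, 582 and 601 in control PoF. RU UF lay above both other groups without overlap but was not called against control PoF (0.52 ± 0.18, adjusted p = 0.0789). It was called with the 2 groups fitted alone (adjusted p = 0.0042), without the 3 dimmest arrays (0.013) and with quality weights (0.00524). Without overlap in either direction stood 36.2% of all tested probe sets in that comparison. Tsc22d3 read 201, 204 and 202 in RU UF, 269, 226 and 195 in IM UF, and 244, 220.3 and 219 in control PoF, a narrow range in all groups. All 3 RU UF values lay below control PoF, without a call (-0.17 ± 0.50 for RU UF over control PoF, adjusted p = 0.907).

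Sgk1 read 3819.8, 2688 and 2527 in RU UF, 4898, 4077 and 4152 in IM UF, and 3517, 3705 and 4209 in control PoF. RU UF overlapped control PoF (-0.36 ± 0.16, adjusted p = 0.185; without RU UF 1, -0.54 ± 0.15, adjusted p = 0.0393) and lay below IM UF in every sample (-0.56 ± 0.16, adjusted p = 0.0354). That call against IM UF was lost without any 1 of IM UF 1, 2 or 3 or RU UF 2 or 3, with adjusted p of 0.069 to 0.17. With arrays weighted by quality Sgk1 was called lower in RU UF than in control PoF (-0.41 ± 0.12, adjusted p = 0.0229).

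**Figure D2:**
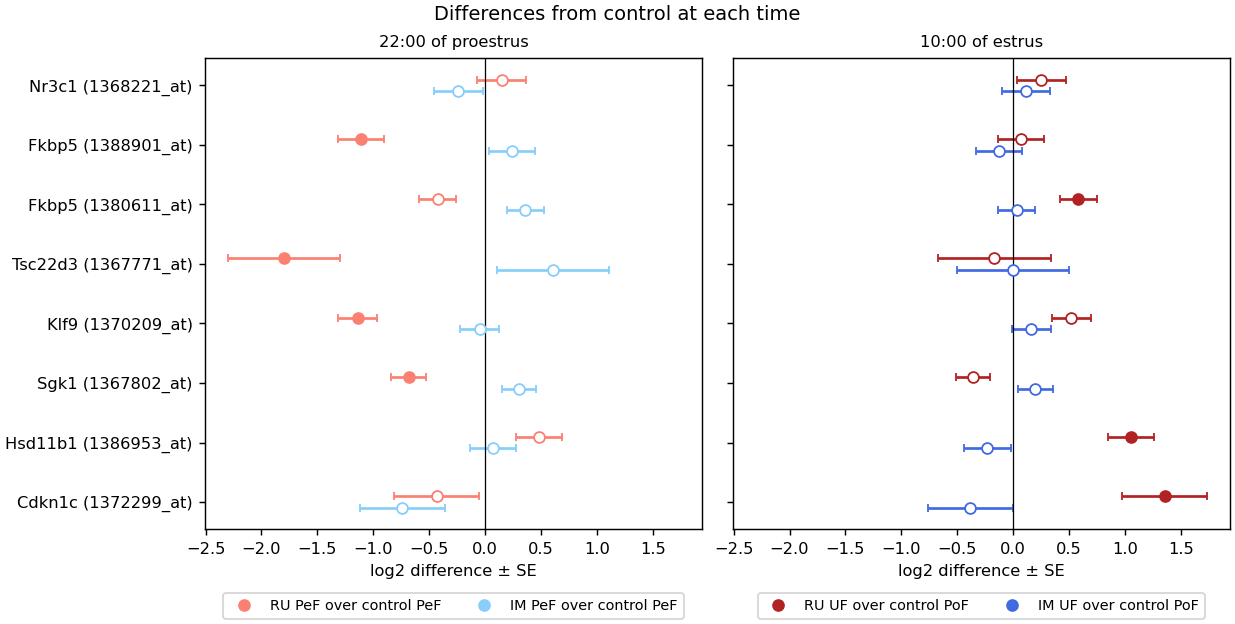
Log2 difference (bars, SE from limma) of 8 member probe sets for RU and IM over control, at 22:00 of proestrus (left) and 10:00 of estrus (right). Filled points passed an adjusted p of 0.05. Fkbp5 (1388901_at), Tsc22d3, Klf9 and Sgk1 are filled on the low side for RU PeF, and Hsd11b1, Cdkn1c and Fkbp5 (1380611_at) on the high side for RU UF, while no IM point is filled.

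The effect of RU at 10:00 minus its effect at 22:00 was tested as an interaction, and 3 of 10 member probe sets passed, all higher at 10:00, against 4.03% of all tested probe sets (2.18% higher). Klf9 had the largest difference among the members that passed, at 1.66 ± 0.25 (adjusted p = 0.00114). The Fkbp5 probe sets had 1.18 ± 0.29 (1388901_at, adjusted p = 0.0292) and 1.01 ± 0.23 (1380611_at, adjusted p = 0.0203). The call of 1388901_at was lost without control PeF 1 (adjusted p = 0.0506), any control PoF sample, RU PeF 2 or 3, or RU UF 2, and that of 1380611_at without control PoF 3, RU PeF 2 or RU UF 2. On the signals as deposited the Fkbp5 differences were -0.44 and -0.68, which are 1.01 and 0.78 relative to the median of all probe sets. Tsc22d3 had 1.63 ± 0.71 (adjusted p = 0.218), and 2.33 ± 0.57 without control PeF 3 (adjusted p = 0.0253). Sgk1, at 0.32 ± 0.22, did not pass (adjusted p = 0.452). The same test of IM called no member and 0 of 18155 probe sets (0%), with 0 members and 1642 probe sets at an unadjusted limma p under 0.05.

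The receptor itself showed no called difference under either drug. Nr3c1 (1368221_at) read 227, 315 and 238 in RU PeF, 228, 127 and 260.0 in IM PeF, and 213, 235 and 249 in control PeF. At 10:00 it read 139.7, 170.0 and 187 in RU UF, 158, 161 and 130.5 in IM UF, and 145, 122 and 147 in control PoF. The groups of each time overlapped, and RU over control was 0.15 ± 0.22 at 22:00 (adjusted p = 0.722) and 0.25 ± 0.22 at 10:00 (adjusted p = 0.579). The later groups lay lower: control PoF was below control PeF without overlap (-0.74 ± 0.22, adjusted p = 0.0116), and RU UF below RU PeF (-0.64 ± 0.22, adjusted p = 0.0275). Without control PoF 2 the control difference was -0.66 ± 0.25 (adjusted p = 0.0513), and the RU call was lost without RU PeF 2 or RU UF 1 or 2. On the signals as deposited the control difference was 0.73, which is -0.54 relative to the median of all probe sets, and after median scaling it was -0.37 (adjusted p = 0.345). IM UF over IM PeF, at -0.39 ± 0.22, was not called (adjusted p = 0.186), with IM PeF 2 the lowest sample of its group. Without IM PeF 2 it was -0.70 ± 0.18 and called (adjusted p = 0.0062), as it was without the 3 dimmest arrays (-0.75, adjusted p = 0.00516) and with quality weights (-0.78, adjusted p = 0.0002). The second Nr3c1 probe set, 1368222_at, was dim, above background on 11 of 18 arrays, and ranged between 1.00 and 72.0.

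Of the enzymes that set local hormone supply, Hsd11b1 was the one measured above background on all 18 arrays. It read 3046, 2949.8 and 3077 in RU UF, 1247, 1651 and 922 in IM UF, and 1367, 1705 and 1318 in control PoF. The RU UF samples were tight and all above the highest sample of the other groups, by 1.05 ± 0.21 over control PoF (2.08-fold, adjusted p = 0.00343) and 1.29 ± 0.21 over IM UF (2.44-fold, adjusted p = 0.00098). At 22:00 Hsd11b1 read 585, 959 and 1113 in RU PeF, 696, 651 and 588 in IM PeF, and 592, 551 and 702 in control PeF. RU PeF overlapped both groups there (0.48 ± 0.21 over control PeF, adjusted p = 0.17). That difference was called after median scaling (0.80, adjusted p = 0.0435), with quality weights (0.58, adjusted p = 0.0227) and without RU PeF 1 (0.75 ± 0.19, adjusted p = 0.0285). The difference between the RU effects at 10:00 and 22:00 was 0.57 ± 0.29 and did not pass (adjusted p = 0.302).

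Hsd11b2 was dim, and RU UF was the only group with all 3 arrays above their background levels, which were 6.93, 7.77 and 6.62. Hsd11b2 read 25.0, 33.7 and 27.9 in RU UF, 20.3, 4.88 and 19.0 in IM UF, and 12.5, 1.73 and 11.3 in control PoF. The 3 RU UF values were the highest of their time, yet the difference from control PoF was not called (1.63 ± 0.65, adjusted p = 0.143) except with the 2 groups fitted alone (adjusted p = 0.0274) or with quality weights (0.0356). At 22:00 it read 28.0, 1.89 and 2.75 in RU PeF, 2.01, 3.58 and 7.78 in IM PeF, and 4.60, 2.74 and 1.39 in control PeF, where no array exceeded the background level. The probe set was above background on 9 of 18 arrays and passed the filter through its brighter arrays alone, among them all 3 of RU UF. RU UF over RU PeF was called (1.72 ± 0.65, adjusted p = 0.0433) although RU PeF 1 lay within the RU UF range, and each single RU array left out except RU PeF 1 ended that call.

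Cdkn1c encodes the cyclin-dependent kinase inhibitor p57, which glucocorticoids induce in several cell types. It read 104, 271 and 224 in RU UF, 60.3, 45.0 and 55.9 in IM UF, and 65.7, 84.2 and 63.1 in control PoF. Each RU UF sample exceeded all others of its time, with differences of 1.36 ± 0.38 over control PoF (2.56-fold, adjusted p = 0.0325) and 1.74 ± 0.38 over IM UF (3.33-fold, adjusted p = 0.00908). The call against control PoF was lost without any 1 of control PoF 1, 2 or 3 or RU UF 2 or 3, with adjusted p between 0.0592 and 0.161. Without RU UF 2 the call against IM UF was lost as well (adjusted p = 0.0606). At 22:00 the values were 116, 178 and 229.5 in RU PeF, 168, 104 and 141 in IM PeF, and 198, 135 and 441 in control PeF, which overlapped (-0.43 ± 0.38 for RU PeF over control PeF, adjusted p = 0.518). The highest, 441, was control PeF 3, and without it the difference was 0.040 ± 0.34 (adjusted p = 0.965), with the opposite sign. Over the same RU UF and control PoF samples, 3 of 9 granulosa markers were called higher and none lower, with sums of 11584 to 12763 in RU UF and 9542 to 10787 in control PoF. The sums of the smooth muscle and pericyte markers were 343 to 438 in RU UF and 559 to 693 in control PoF, with 0 of 6 called. The theca sums were 1306 to 1383 in RU UF and 1698 to 1929.6 in control PoF. Of 4 tested theca markers 1 was called higher and 1 lower. The endothelial sums were 407 to 632 in RU UF and 638 to 692 in control PoF, with 0 of 5 called. In this comparison 4.57% of all tested genes were called higher and 5.53% lower. The Gapdh measure was 2.86 to 3.26 in RU UF and 2.07 to 2.30 in control PoF. Their part in the Hsd11b1 and Cdkn1c differences was not tested.

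**Figure D3:**
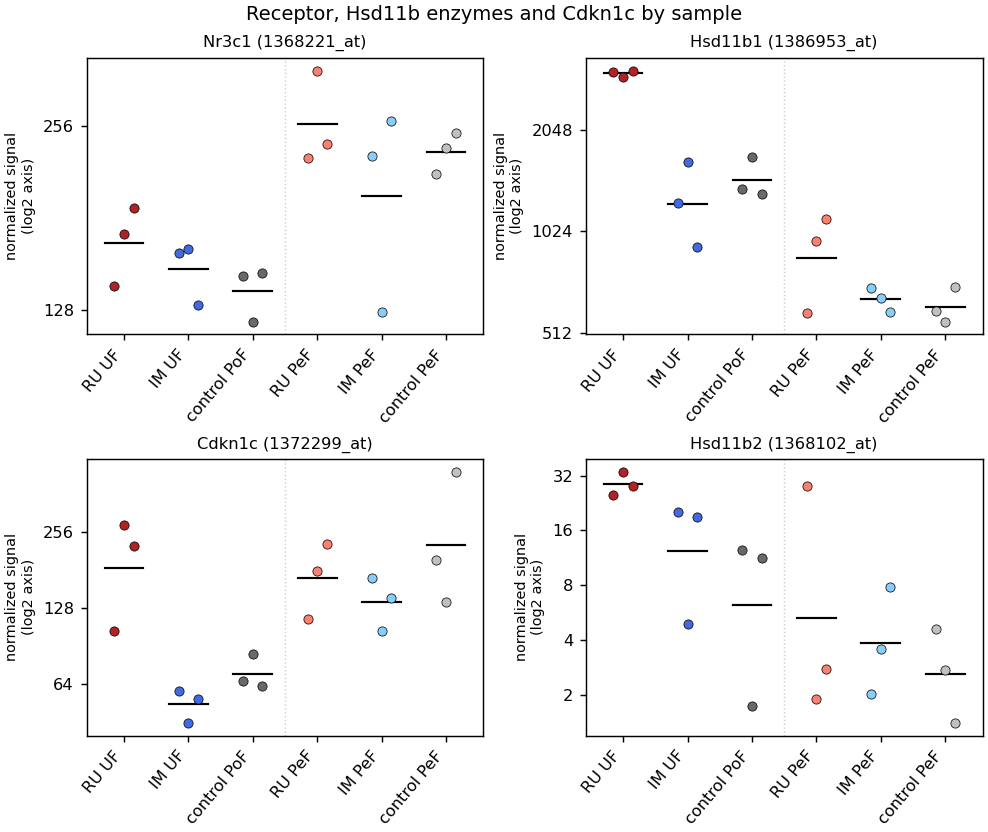
Normalized signal on a log2 axis of Nr3c1, Hsd11b1, Cdkn1c and Hsd11b2 in the 6 groups, with dots for samples, lines for geometric means and a dotted line between 10:00 of estrus (left) and 22:00 of proestrus (right). For Hsd11b1 and Cdkn1c the 3 RU UF samples lie above all IM UF and control PoF samples. The Hsd11b2 values are dim, and only in RU UF are all 3 above the background levels of their arrays.

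Without a drug the members split in direction over time. In control PoF against control PeF 6 of 10 member probe sets were called, 2 higher and 4 lower, against 39.7% of all tested probe sets (21.2% higher, 18.5% lower). Sgk1 rose 3.81-fold (1.93 ± 0.16, adjusted p = 7.88e-08) and Hsd11b1 2.37-fold (1.24 ± 0.21, adjusted p = 0.000151). Klf9 fell 3.43-fold (-1.78 ± 0.18, adjusted p = 6.81e-07), Cdkn1c 3.14-fold (-1.65 ± 0.38, adjusted p = 0.00225) and Nr3c1 1.67-fold, as given above. Without control PeF 3 Cdkn1c fell by 1.18 ± 0.34 (adjusted p = 0.0127).

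Marker sums and the Gapdh measure differed between the same samples. The smooth muscle and pericyte sum was 559 to 693 in control PoF and 401 to 440.2 in control PeF, with 3 markers called higher and 1 lower. The theca sum was 1698 to 1929.6 in control PoF and 2166 to 2558 in control PeF, and the endothelial sum was 638 to 692 in control PoF and 887 to 1001 in control PeF, with 2 markers of each called lower and 1 theca marker higher. The granulosa sum was 9542 to 10787 in control PoF and 12016 to 18332 in control PeF, with 3 of 9 called higher and 4 lower. Of all tested genes 24.6% were called higher and 19.7% lower here. The Gapdh measure was 2.07 to 2.30 in control PoF and 2.95 to 4.09 in control PeF. Neither these sums nor the Gapdh measure overlapped between the times. The smooth muscle sum was also 343 to 438 in RU UF and 173 to 179.7 in RU PeF, and 745 to 888 in IM UF and 257 to 328 in IM PeF. Their part in the changes over time was not tested.

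For Fkbp5 the probe sets disagreed over time. In control PoF against control PeF 1380611_at fell 2.62-fold (-1.39 ± 0.16, adjusted p = 4.58e-06), while 1388901_at was at 0.49 ± 0.21 and did not pass (adjusted p = 0.0686). Without control PeF 1 the 1388901_at difference was at 0.73 ± 0.19 and called (adjusted p = 0.00545), and without control PeF 3 it was at 0.24. Without normalization 1380611_at was at 0.084, which is -1.19 relative to the median of all probe sets. After median scaling 1388901_at was at 0.80 (adjusted p = 0.0391). Over the 18 samples the 2 probe sets correlated at r = -0.269. Within the 9 samples of 22:00 the correlation was 0.754 and within the 9 of 10:00 it was 0.673. These values describe samples that share a group structure and brightness. The sources used here do not say which transcripts each probe set reads, so the direction of Fkbp5 over time is uncertain.

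Tsc22d3 in control PoF over control PeF was -1.21 ± 0.50 (adjusted p = 0.0645), and -1.91 ± 0.43 without control PeF 3 (adjusted p = 0.00212). In IM UF against IM PeF it fell by 1.82 ± 0.50 (adjusted p = 0.00954), and without IM PeF 2 by 1.25 ± 0.49 (adjusted p = 0.0569). In all, 6 of 10 members were called in IM UF against IM PeF, 2 higher and 4 lower, against 33.4% of tested probe sets (16.3% higher, 17.1% lower). Sgk1 and Hsd11b1 rose there, by 1.82 ± 0.16 and 0.94 ± 0.21, and Klf9, Fkbp5 (1380611_at), Tsc22d3 and Cdkn1c fell. Without IM PeF 1 or IM UF 2 the Cdkn1c call was lost (adjusted p = 0.0616 and 0.0517).

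In RU UF against RU PeF 6 of 10 were called, 4 higher and 2 lower, against 38.9% of tested probe sets (19% higher, 19.9% lower). The higher ones were Fkbp5 (1388901_at), Sgk1, Hsd11b1 and Hsd11b2, and the lower ones both Nr3c1 probe sets. Fkbp5 (1388901_at) rose 3.16-fold (1.66 ± 0.21, adjusted p = 5.93e-06), Sgk1 4.77-fold (2.25 ± 0.16, adjusted p = 1.18e-08) and Hsd11b1 3.53-fold (1.82 ± 0.21, adjusted p = 2.69e-06). The dim Nr3c1 probe set 1368222_at read 1.00, 13.4 and 1.00 in RU UF, against 16.2, 22.5 and 18.9 in RU PeF (-1.77 ± 0.67, adjusted p = 0.045). It exceeded the array median on 3 arrays, the fewest that the filter allows, and these were control PeF 3, RU PeF 2 and RU PeF 3. It thus passed the filter mostly through the group in which it was then higher, so its call adds no support. With no filter its call and that of Hsd11b2 were lost (adjusted p = 0.0668 and 0.0616), leaving 4 of 10, and its call was also lost without any 1 of the RU arrays except RU UF 2. Klf9, with -0.12 ± 0.18 (adjusted p = 0.621), and Cdkn1c, with 0.14 ± 0.38 (adjusted p = 0.81), were not called. The difference between the RU effects at 10:00 and 22:00 was tested for Cdkn1c as for Klf9 and Fkbp5, and was 1.79 ± 0.54 (adjusted p = 0.0717). It passed without control PeF 2 (2.16, adjusted p = 0.0247), without RU UF 1 (2.20, adjusted p = 0.0278) and with quality weights (1.27, adjusted p = 0.0292).

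A wider list of 37 genes reported as glucocorticoid receptor targets in other tissues gave 35 with a probe set and 30 tested, with 1 probe set for each gene. In RU PeF against control PeF 2 were higher and 9 lower, beside 8.54% of the 10391 tested genes called (3.8% higher, 4.73% lower). The median difference of the 30 was -0.71, against 0.05 over all tested genes. In RU UF against control PoF 2 were higher and 8 lower, beside 10.1% of genes called (4.57% higher, 5.53% lower), and the median was -0.51 against -0.04. The IM comparisons called 0 of 30 at either time (0% and 0.0481% of genes), with medians of -0.20 in IM UF over control PoF and -0.04 in IM PeF over control PeF. In control PoF against control PeF 9 were higher and 8 lower, beside 44.3% of genes (24.6% higher, 19.7% lower). The RU effect differed between the times for 6 of the 30, 5 higher and 1 lower at 10:00, beside 4.47% of genes. The RU PeF count of 11 was 6 after median scaling, 0 on the signals as deposited, 4 with the 2 groups fitted alone or without RU PeF 3, 6 without RU PeF 2, 7 with no filter or without control PeF 1 or RU PeF 1, and 18 with arrays weighted by quality. The RU UF count of 10 was 3 on the signals as deposited, 5 after median scaling, 6 without any 1 of control PoF 2, control PoF 3 or RU UF 1, 17 without the 3 dimmest arrays, 18 with the 2 groups fitted alone and 19 with quality weights. The count of 6 for the difference between the times was 1 on the signals as deposited, 3 without any 1 of control PoF 1, control PoF 2, RU PeF 3 or RU UF 3, 11 without the 3 dimmest arrays and 12 with quality weights.

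The largest falls of the list in RU PeF were in Mt1 and Mt2A, metallothioneins that bind zinc, and Pdk4, a kinase that holds back pyruvate oxidation. Mt1 read 26.7, 17.1 and 10.1 in RU PeF, against 109.6, 108 and 129 in control PeF, a fall of 5.92-fold (-2.57 ± 0.28, adjusted p = 2.99e-05). Mt2A read 257, 238 and 168 in RU PeF, against 1660.4, 742 and 1490.1 in control PeF, a fall of 5.57-fold (-2.48 ± 0.31, adjusted p = 0.000104). Without control PeF 3 the differences were -2.48 ± 0.31 for Mt1 and -2.34 ± 0.34 for Mt2A (adjusted p = 0.000106 and 0.00037). The metallothioneins are close paralogs, and whether their probe sets read one another's transcripts is not shown by the deposited signals.

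Pdk4 was dim, at 7.24, 13.0 and 9.74 in RU PeF against 75.7, 24.3 and 66.1 in control PeF (-2.04 ± 0.58, adjusted p = 0.0392), and its call was lost without any single array of either group except control PeF 2 (without control PeF 3, -1.85 ± 0.64, adjusted p = 0.0882). In RU UF it read 18.5, 1.00 and 11.0, against 63.9, 49.4 and 30.1 in control PoF (-2.19 ± 0.58, adjusted p = 0.0243), and without RU UF 2, its dimmest sample, it was -1.49 ± 0.55 (adjusted p = 0.141). Leaving out control PoF 1 or 2 ended the RU UF call too. It lay below control in 3 of 3 samples at both times.

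In RU UF the largest falls after Pdk4 were in Dusp1, a phosphatase that switches off MAP kinases, and Errfi1, a feedback inhibitor of the epidermal growth factor receptor. Dusp1 read 178, 175 and 284 in RU UF, against 1237, 861 and 787 in control PoF, a fall of 4.50-fold (-2.17 ± 0.28, adjusted p = 8.74e-05). Errfi1 read 77.3, 71.5 and 149.8 in RU UF, 263, 313 and 158 in IM UF, and 599.8, 442 and 265 in control PoF. RU UF lay below both without overlap, a fall of 4.28-fold from control PoF (-2.10 ± 0.36, adjusted p = 0.00106) and of 2.46-fold from IM UF (-1.30 ± 0.36, adjusted p = 0.0347). IM UF overlapped control PoF (-0.80 ± 0.36, adjusted p = 0.675). At 22:00 Errfi1 read 1004, 929.7 and 718 in RU PeF, against 1184, 1741 and 2121 in control PeF, without overlap and without a call (-0.90 ± 0.36, adjusted p = 0.134).

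The 2 genes of the list that were higher in RU PeF, and the 2 that were higher in RU UF, are named because they make up those counts and were picked after their values were seen. Gadd45a, a stress-induced gene of growth arrest, read 73.8, 81.0 and 75.0 in RU PeF, against 22.4, 29.2 and 9.54 in control PeF (1.87 ± 0.34, adjusted p = 0.0025). Rgs2, which dampens G protein signalling, read 8138, 9173 and 8867 in RU PeF, against 2957, 3245 and 6396 in control PeF (1.14 ± 0.32, adjusted p = 0.035). In both genes control PeF 3 was the sample farthest from its group, and without it the differences were 1.47 ± 0.30 for Gadd45a (adjusted p = 0.00549) and 1.49 ± 0.30 for Rgs2 (adjusted p = 0.00507). The Rgs2 call was lost without any other single array of the 2 groups.

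Per1, a clock gene that glucocorticoids can induce, read 318, 251 and 232 in RU UF, against 154, 105 and 164 in control PoF (0.92 ± 0.20, adjusted p = 0.00595). At 22:00 it went the other way, with 302, 286 and 254 in RU PeF, against 502, 491 and 459.6 in control PeF (-0.78 ± 0.20, adjusted p = 0.0204). Its groups did not overlap at either time. After median scaling neither difference passed (0.79, adjusted p = 0.128, in RU UF and -0.44, adjusted p = 0.336, in RU PeF), and the RU PeF call was lost without RU PeF 2 or 3 (without control PeF 3, -0.82 ± 0.22, adjusted p = 0.0272). On the signals as deposited the RU PeF difference was 0.13, which is -0.64 relative to the median of all probe sets. Sesn1, a stress-induced regulator of growth signalling, read 88.2, 77.3 and 75.1 in RU UF, against 46.2, 38.1 and 41.4 in control PoF (0.89 ± 0.19, adjusted p = 0.00733; after median scaling 0.76, adjusted p = 0.109).

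**Figure D4:**
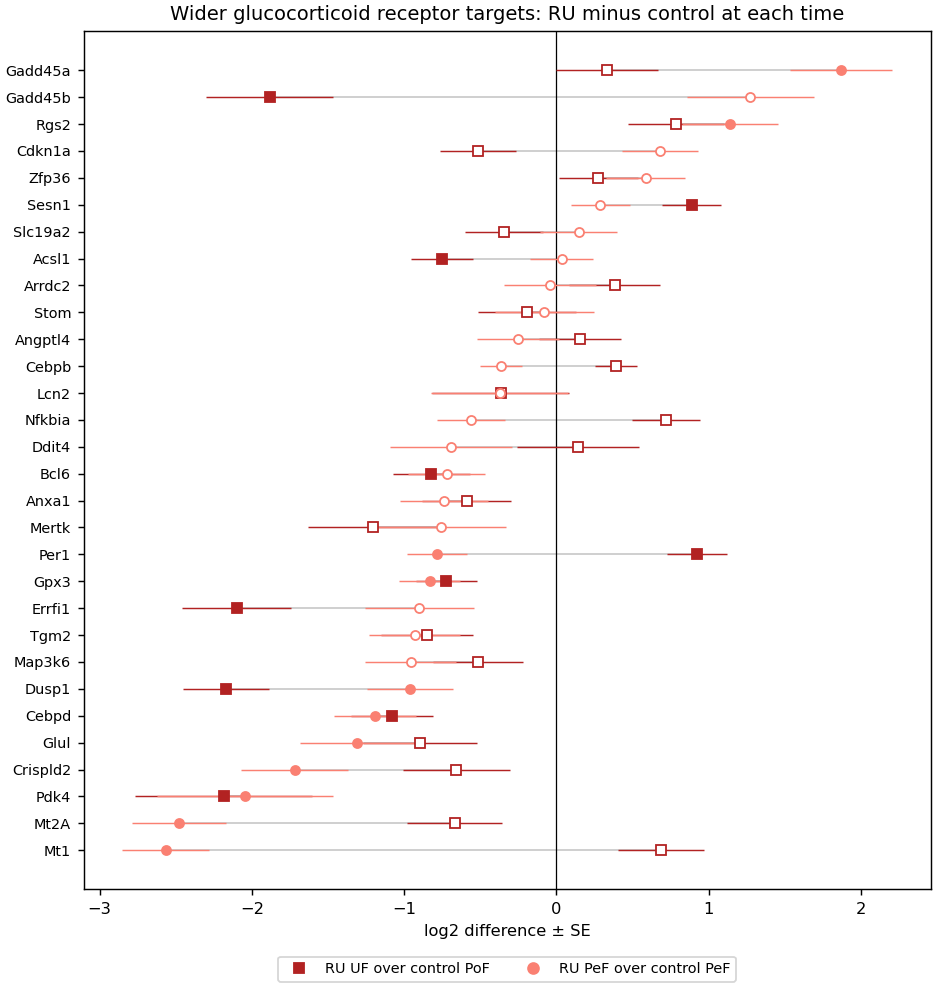
Log2 difference (bars, SE from limma) of the 30 tested wider targets for RU UF over control PoF (squares) and RU PeF over control PeF (circles), ordered by the difference at 22:00; filled points passed an adjusted p of 0.05. Of the filled points 9 lie below 0 and 2 above for RU PeF, and 8 below and 2 above for RU UF. Per1 is filled below 0 for RU PeF and above 0 for RU UF.

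Of 14 tested chaperones and immunophilins that hold the unbound receptor (16 listed, 14 with a probe set), none was called in either RU or either IM comparison with control, with medians between -0.07 and 0.06. With time in controls 1 was higher and 4 lower, where 44.3% of all tested genes were called. Of 10 tested coregulators and related receptors (14 listed, 13 with a probe set) 1 was lower in RU PeF than in control PeF, the histone acetyltransferase Ep300 (-0.86 ± 0.19, adjusted p = 0.00931; -0.75 ± 0.20 without control PeF 3, adjusted p = 0.0296). In RU UF over control PoF 1 was higher, the Mediator subunit Med1 (0.55 ± 0.16, adjusted p = 0.0369). These counts are near the shares of all genes called, 8.54% and 10.1%. The Med1 call was lost without any array of the 2 groups except control PoF 3. Without normalization Ep300 was at 0.010 and Med1 at -0.17, which are -0.76 and 0.51 relative to the median of all probe sets.

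Of 12 listed genes of corticosteroid synthesis, transport and reduction 8 had a probe set and 4 were tested. Abcb1a, an efflux pump that exports some corticosteroids, read 519, 879 and 626 in RU UF, against 205, 160.0 and 147 in control PoF (1.94 ± 0.33, adjusted p = 0.00102). It was also higher in RU PeF, at 66.6, 79.3 and 97.8, than in control PeF, at 42.6, 39.0 and 11.1 (1.47 ± 0.33, adjusted p = 0.0114); without control PeF 3 that difference was 0.93 ± 0.23 (adjusted p = 0.0164), and without RU PeF 3 the call was lost (adjusted p = 0.0605). H6pd, which supplies the cofactor for the reductase action of Hsd11b1, read 122, 209 and 202 in RU UF, against 387, 368 and 388 in control PoF. It was lower in the group where Hsd11b1 was higher (-1.13 ± 0.33, adjusted p = 0.0421), and the call was lost without any 1 array of the 2 groups.

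Akr1c3, a hydroxysteroid dehydrogenase once named Akr1c18 that inactivates progesterone, read 5014, 4898 and 5164 in RU PeF, against 962, 1288 and 2519 in control PeF. The RU PeF samples lay above every other sample of the 18, and the difference from control PeF was 1.78 ± 0.33 (3.43-fold, adjusted p = 0.00341), and 2.17 ± 0.31 without control PeF 3 (adjusted p = 0.000328). At 10:00 it overlapped between RU UF and control PoF (0.52 ± 0.33, adjusted p = 0.417).

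The genes whose log2 signal followed each of 3 members most closely over the 18 samples were ranked by Pearson's r among 10383 other genes, as a description of samples that share groups and times. For Nr3c1 they were Lrrc8a (r = 0.923), Selenok (0.916) and Antxr2 (0.912). For Fkbp5 (1388901_at) they were Rbm47 (r = 0.973), Jam2 (0.945) and Slc41a3 (0.944). For Tsc22d3 they were Get1 (r = 0.943), Rfng (0.939) and Card19 (0.935). The Tsc22d3 values of r were 0.961 to 0.984 within the 9 samples of 22:00 and -0.126 to 0.731 within the 9 of 10:00. The Fkbp5 values were 0.934 to 0.974 within 22:00 and 0.419 to 0.631 within 10:00. The Nr3c1 values were 0.824 to 0.867 within 22:00 and 0.55 to 0.755 within 10:00.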

How the data were processed

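Expression was measured on 18 Affymetrix arrays, 3 for each of 6 groups given by the sample labels. The titles call the 22:00 follicles peri-ovulatory and the series text pre-ovulatory; they are PeF here. The deposited values are probe set intensities on a linear scale; the submitters' processing notes name MAS5, with no scaling stated in the sources used here. Probe sets were named from the platform annotation, in which 20832 of 21268 listed probe sets had 1 symbol and 436 several. Array medians of 4.4 to 27.4 and the 3 arrays in each group limit the precision.

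Intensities of all probe sets were quantile normalized between arrays, and 57 control probe sets were then left out. Values were taken as log2(signal + 3.08), the pseudocount being the 20th percentile of all normalized values. The 18155 probe sets that exceeded the array median on 3 or more arrays were fitted with limma 3.58.1 (R 4.3.3), 1 mean for each group over all 18 arrays with 12 residual degrees of freedom, an intensity trend in the variance and Benjamini-Hochberg adjustment over all tested probe sets. A call is an adjusted p under 0.05, two-sided. Fold is 2 to the power of the absolute log2 difference. For gene counts each gene had the probe set of highest mean (10391 genes). An array's background level is its highest signal among 27 control probe sets with no spiked target. The fit was tested on simulated data. Figures used Python 3.11.15 with matplotlib 3.10.9.

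Members and lists were chosen with earlier results of these data known. All member probe sets are named, as are up to 3 called genes of the largest difference from each list in RU PeF and RU UF over control, and the 3 genes most like Nr3c1, Fkbp5 and Tsc22d3 by Pearson's r; exceptions are marked in the text. Alternatives were signals as deposited, median scaling, the pseudocount at the median, no filter, array quality weights, fits without the 3 dimmest arrays or on the compared groups alone, a replicate block, the other Fkbp5 probe set, and each array left out in turn.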

Additional observations from a re-analysis of the deposited data

Results flagged for a closer look

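The effect of RU at 10:00 of estrus minus its effect at 22:00 of proestrus passed the interaction test (limma, adjusted p under 0.05) for 10 named probe sets, with the differences on the log2 scale. Among the members Klf9 had 1.66, and the Fkbp5 probe sets had 1.18 (1388901_at) and 1.01 (1380611_at). Among the wider targets Mt1 had 3.25 (adjusted p = 0.000315), Mt2A 1.81 (adjusted p = 0.0267), Per1 1.71 (adjusted p = 0.00185), Nfkbia 1.28 (adjusted p = 0.0295) and Cebpb 0.76 (adjusted p = 0.0374). Gadd45b had the opposite sign, at -3.16 (adjusted p = 0.00541). Ep300, of the coregulator list, had 1.18 (adjusted p = 0.0176).

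Mt1 read 304, 211 and 312 in RU UF, against 174, 184 and 147 in control PoF (0.69 ± 0.28, adjusted p = 0.165), above control without a call, and its RU PeF samples all lay below control PeF. Gadd45b, a stress-induced inhibitor of growth, read 118, 84.7 and 98.2 in RU UF, against 429, 356 and 345 in control PoF. At 22:00 it read 819, 859 and 773 in RU PeF, against 147, 356 and 717 in control PeF, where the highest control value was that of control PeF 3. Without control PeF 3 its difference was -3.70 (adjusted p = 0.000325).

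The Cebpb call was lost without any 1 array of the 4 groups except control PeF 1, RU UF 1 or RU UF 2 (without control PeF 3 it was 0.73, adjusted p = 0.0503). The Nfkbia call was lost without any control PoF array, RU PeF 2 or 3, or RU UF 1 or 3. The Mt2A call was lost without control PeF 1, control PoF 1 or 2, RU PeF 3, or RU UF 1 or 3. Median scaling ended the calls of Mt2A (1.45, adjusted p = 0.0672), Per1 (1.23, 0.103), Ep300 (0.75, 0.165), Nfkbia (0.80, 0.301), Cebpb (0.40, 0.443) and both Fkbp5 probe sets (0.308 and 0.448).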

How the results depend on the processing

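Of 61 called values, the alternative settings kept call and direction for 60 with arrays weighted by quality, 60 with the pseudocount at the median, 60 without the 3 dimmest arrays, 58 with a replicate block, 53 with the compared groups alone, 50 with no filter, 37 with median scaling and 7 on the signals as deposited, where 12 reversed. With 1 array left out 321 of 426 kept theirs. Uncalled values became calls 14 times with quality weights.

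On the signals as deposited the member counts were 3 in control PoF over control PeF, 1 in RU UF over RU PeF and 0 in RU PeF and RU UF over control, in RU over IM at both times, in IM UF over IM PeF and in the RU effect difference. The reversed values there were 0.73 for Nr3c1 and 0.084 for Fkbp5 (1380611_at) in control PoF over control PeF, 0.24 for Sgk1, 0.13 for Per1 and 0.010 for Ep300 in RU PeF over control PeF, and -0.15 for Fkbp5 (1380611_at) and -0.17 for Med1 in RU UF over control PoF. In the RU effect difference they were -0.44 and -0.68 for Fkbp5, -0.35 for Nfkbia, -0.79 for Cebpb and -0.43 for Ep300. Less the median of all probe sets in that setting, the last 3 were 1.10, 0.67 and 1.02, the sign found after normalization. Median scaling gave counts of 2 in RU PeF over control PeF, 3 in RU PeF over IM PeF, 2 in RU UF over IM UF and 1 in the RU effect difference. Of the 2 in RU PeF over control PeF, Klf9 was lower and Hsd11b1 higher. Quality weights gave 1 in IM PeF over control PeF, 6 in RU UF over control PoF and 5 in the RU effect difference. Of the 6 in RU UF over control PoF, Sgk1 was lower. With the compared groups alone the counts were 0 in RU PeF and 5 in RU UF over control, and with no filter RU UF over IM UF gave 2. By its other probe set (1380611_at) Fkbp5 reversed to -1.39 in control PoF over control PeF, -1.72 in IM UF over IM PeF and -0.38 in RU UF over RU PeF. The cause of these changes was not tested.

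With 1 array left out the member counts ranged from 2 (without RU PeF 3) to 5 in RU PeF over control PeF, from 1 to 4 in RU UF over control PoF, from 3 to 5 in RU PeF over IM PeF, from 1 to 4 in RU UF over IM UF, from 3 to 5 in RU UF over RU PeF, from 1 to 4 in the RU effect difference, from 5 to 7 in control PoF over control PeF and from 5 to 6 in IM UF over IM PeF. Over all settings the count of all called probe sets ranged from 22 to 3466 (1346 as reported) in RU PeF over control PeF, 151 to 3692 (1592) in RU UF over control PoF, 41 to 3859 (950) in RU PeF over IM PeF, 32 to 2656 (1262) in RU UF over IM UF, 82 to 2450 (732) in the RU effect difference, 0 to 547 (0) in the IM effect difference and 0 to 2317 (0) in IM PeF over control PeF. The ranges were 5083 to 9921 (7202) in control PoF over control PeF, 609 to 10168 (6070) in IM UF over IM PeF, 1038 to 9205 (7064) in RU UF over RU PeF and 1 to 169 (6) in IM UF over control PoF. With a replicate block 3 calls were lost, Fkbp5 (1380611_at) in RU UF over IM UF (adjusted p = 0.0718), Pdk4 in RU PeF over control PeF (0.058) and Nr3c1 (1368222_at) in RU UF over RU PeF (0.059), and the member count of RU PeF over control PeF stayed at 4. Correlations of same-numbered samples ran between -0.308 and 0.118, above 0.1 throughout in 0 of 15 pairs of groups. With 3 samples in each group these correlations cannot show whether same-numbered samples share a batch. Hsd11b2, Pdk4 and Nr3c1 (1368222_at) are dim, and their differences carry the least signal.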
